A study of Rattus norvegicus with 22 samples.

Results

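A set of 7 transcripts of xenobiotic metabolism was followed in the livers of male rats whose mothers had been obese: the aryl hydrocarbon receptor Ahr and the cytochrome P450 family 2 genes Cyp2a1, Cyp2f4, Cyp2t1, Cyp2d2, Cyp2d4 and Cyp2d5. They were chosen by name from the deposited male table, in which each has 1 of the 1365 rows, so 7 of 1365 rows are described. Liver RNA had been sequenced from Wistar rats at postnatal day 110, with 1 library per animal. The MO group held 5 male offspring of mothers on an obesogenic diet (maternal obesity, MO), and the control group held 6 male offspring of mothers on a control diet. The labels give the diet of the mothers and neither the litter nor the diet of the offspring, so animals of a group may share a mother, and p-values measure only the spread between these animals. A second table, of 5 MO and 6 control females, holds 69 rows and 0 of the 7 genes, which were therefore not analysed here in females.

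Cytochrome P450 enzymes are heme proteins of the endoplasmic reticulum that insert oxygen into drugs, pollutants, steroids and fatty acids, the first step of their removal. Family 2 is the main drug-metabolising family of rat liver, and most of its genes lie in clusters of close copies, with several expressed differently in males and females. Ahr is a ligand-activated transcription factor that pairs with Arnt after binding dioxin-like compounds and tryptophan metabolites, and is best known for inducing family 1 P450 genes through the xenobiotic response element, whose core is GCGTG.

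All 7 transcripts were lower in MO than in control males. The drop in mean level was largest for Ahr, at 56.1%, and lay between 28.7% and 44.8% for the 6 P450s. The deposited table lists only rows that its authors had selected for a difference, with 1317 of 1365 lower in MO, so that each member differed was fixed by the listing. No listed row changed by less than 0.48 on the log2 scale, so the listing also bounded the sizes and ranks of the changes. Within that bound, the members add how far each fell, in which animals, and how they stood against the other listed rows. Because RNA came from whole liver, fewer cells of a type and less RNA per cell cannot be told apart.

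The upstream sequence of 3 members is shown: Cyp2t1 and Cyp2a1 because each holds 1 of the 2 motifs searched, and Ahr because it is the receptor. The windows of Ahr and of the other 4 members held neither motif. Windows are the 250 bases before the RefSeq transcript start on GRCr8, 5′ to 3′ on the gene's strand, in lower case with motif letters in capitals. They are Ahr (chr6:57998902-57999151, minus strand), Cyp2t1 (chr1:91575260-91575509, plus strand) and Cyp2a1 (chr1:91359028-91359277, plus strand).
Ahr: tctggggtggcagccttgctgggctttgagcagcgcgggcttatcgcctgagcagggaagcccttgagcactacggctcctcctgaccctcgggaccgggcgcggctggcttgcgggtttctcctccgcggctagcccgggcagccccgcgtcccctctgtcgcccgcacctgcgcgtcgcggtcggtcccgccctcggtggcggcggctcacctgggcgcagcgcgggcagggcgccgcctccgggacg
Cyp2t1: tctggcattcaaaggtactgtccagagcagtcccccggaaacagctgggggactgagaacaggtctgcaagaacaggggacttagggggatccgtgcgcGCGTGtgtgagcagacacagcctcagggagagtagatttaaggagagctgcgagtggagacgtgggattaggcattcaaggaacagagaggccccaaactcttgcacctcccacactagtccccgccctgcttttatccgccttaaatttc
Cyp2a1: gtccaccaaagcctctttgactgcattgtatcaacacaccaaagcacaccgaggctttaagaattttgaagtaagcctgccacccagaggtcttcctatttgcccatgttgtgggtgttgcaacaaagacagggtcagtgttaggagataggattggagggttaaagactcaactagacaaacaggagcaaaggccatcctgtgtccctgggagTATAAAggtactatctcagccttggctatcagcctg

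All 7 members had a promoter in the RefSeq set. The core of the xenobiotic response element, GCGTG on either strand, occurred in the window of 1 of them, Cyp2t1, where it began 151 bases before the start, against 25.9% of all 33469 promoters. The sequence TATAAA on the gene's strand occurred in 1 of the 7, Cyp2a1, where it began 36 bases before the start, against 8.06% of all promoters. The Ahr window was rich in G and C (75.2%, against a median of 51.2% over all promoters). A match of letters is no binding site, and no binding was measured here.

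Levels are in RPM, that is, read counts brought to the same total in every library, which are not divided by transcript length, so they are compared between animals and not between genes. The steps between low values put the depth at 10530000 to 11590000 reads in MO males and 7890000 to 11170000 in control males, and 5 of 6 controls were shallower than every MO library. Fold changes and their standard errors (SE) come from limma on log2(RPM + 1) over the whole table, with Benjamini-Hochberg adjustment at 0.05. That test called 100% of the rows, 96.5% of them in the direction lower in MO, and 7 of 7 members, so the members' share is that of the table; an exact permutation test in its place called 97.9% of the rows and 7 of 7 members. Every MO animal lay below every control in 29.9% of the rows and in 0 of the 7 members.

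**Figure D1:**
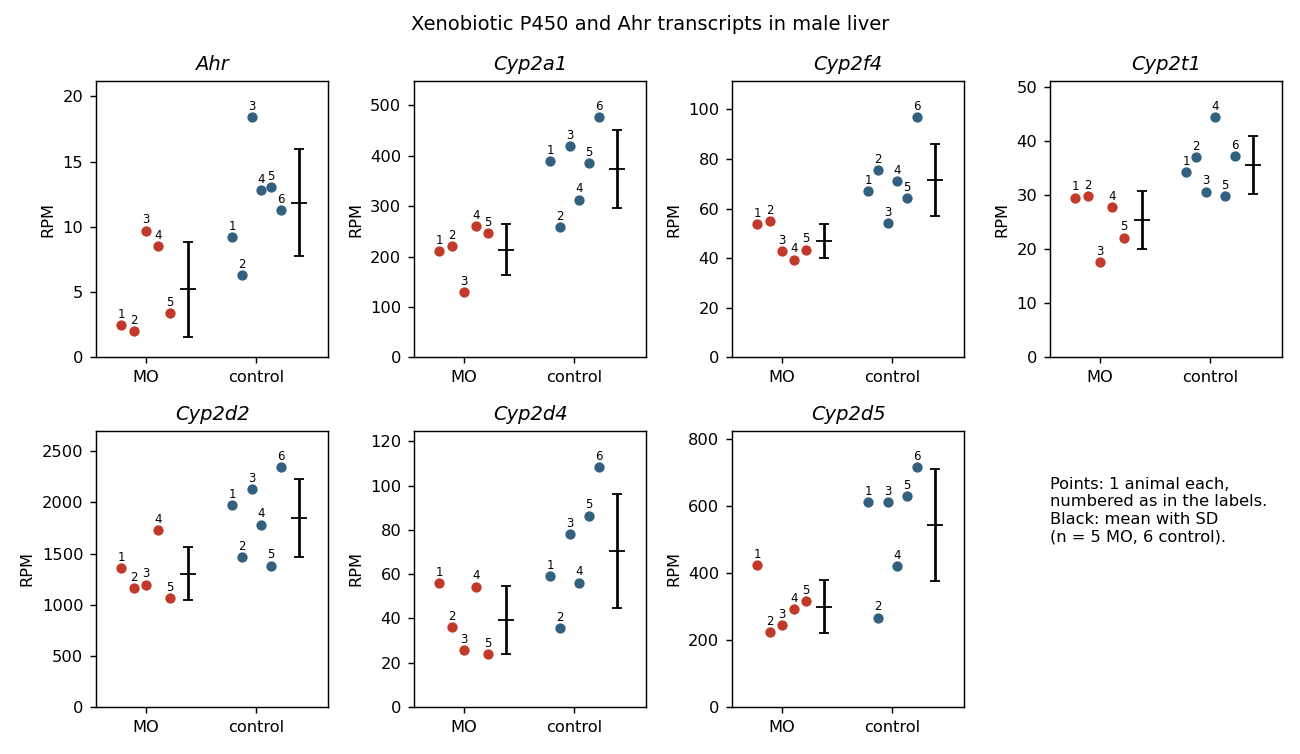
Level of each transcript in RPM (y axis, from 0) in the 5 MO and 6 control males, with points numbered by animal and black bars for mean and SD. In all 7 panels at least 1 MO animal reaches the control range, and for Ahr the MO animals 3 and 4 stand at 9.70 and 8.49 RPM while the other MO animals are at 1.99 to 3.37 RPM.

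The receptor Ahr (transcript NM_013149, chromosome 6) had the largest change of the 7. It was at 2.43, 1.99, 9.70, 8.49 and 3.37 RPM in MO males 1 to 5, against 9.19, 6.32, 18.4, 12.8, 13.1 and 11.3 RPM in control males 1 to 6. MO males 1, 2 and 5 lay below every control, and MO males 3 and 4 lay inside the control range. The means were 5.20 ± 3.62 RPM in MO males (SD, n = 5) and 11.8 ± 4.09 RPM in control males (SD, n = 6). On the log2 scale MO over control came to -1.19 ± 0.30 (SE, limma; adjusted p = 0.0040), the 48th lowest of the 1365 rows.

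The Ahr values rest on few reads. They stood for about 27, 21, 110, 90 and 39 reads in MO males 1 to 5 and for about 55 to 165 reads in the control males. The 95% Poisson interval, which covers counting error only, was 27.7 to 53.3 reads for MO male 5 and 72.4 to 110.6 reads for MO male 4, the nearest pair across the gap between MO animals. The spread within groups was 0.67 on the log2 scale, against a median of 0.30 over all rows, and 1340 of the 1365 rows had a smaller one.

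The genes whose deviations from their group means were nearest to those of Ahr, measured as the root mean square difference over the 11 male libraries, were Gk, which encodes glycerol kinase (0.24 on the log2 scale), and Cldn1, which encodes the tight junction protein claudin 1 (0.29). The median over all rows was 0.60. Deviations here and for the other members are on the deposited scale, so a shift shared by all rows of a library adds to the likeness. Gk was at 87.7, 78.6, 211.7, 201.5 and 119.4 RPM in MO males 1 to 5, against 153.5 to 451.1 RPM in control males. MO males 3 and 4 were the highest of the MO animals, and MO males 1, 2 and 5 lay below every control. Gk was picked for its likeness to Ahr in these same libraries, so this order is no separate observation of the Ahr pattern.

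Cyp2a1 (NM_012692, chromosome 1) encodes the testosterone 7-alpha-hydroxylase, which is higher in female than in male rat liver. It was at 211.4, 221.1, 129.5, 260.1 and 247.1 RPM in MO males 1 to 5, against 389.6, 258.8, 419.4, 313.1, 385.0 and 476.9 RPM in control males 1 to 6. Only MO male 4 rose above a control, control male 2. The means were 213.8 ± 51.0 RPM in MO males (SD, n = 5) and 373.8 ± 77.5 RPM in control males (SD, n = 6), and the log2 fold change was -0.82 (limma, SE 0.20, adjusted p = 0.0040). Its neighbour Cyp2a2, a male-predominant steroid hydroxylase, was at 681.3 ± 69.3 RPM in MO males (SD, n = 5) and 1267 ± 267 RPM in control males (SD, n = 6), with 5 of 5 MO animals below every control. Cyp2a1 and Cyp2a2 are close copies, and how reads that fit both were assigned is not given in the sources used here, so their separate values are uncertain.

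Cyp2f4 (NM_019303, chromosome 1) belongs to the subfamily known from rodent lung for activating naphthalene. It was at 53.6, 54.9, 43.0, 39.4 and 43.4 RPM in MO males 1 to 5, against 67.0, 75.6, 54.1, 71.1, 64.2 and 96.9 RPM in control males 1 to 6. MO male 2 stood just above control male 3, and the other 4 MO animals were below every control. The means were 46.8 ± 6.94 RPM in MO males (SD, n = 5) and 71.5 ± 14.4 RPM in control males (SD, n = 6). The log2 fold change of -0.59 (limma, SE 0.18, adjusted p = 0.0081) was close to the median of all rows, -0.58.

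Cyp2t1 (NM_134369, chromosome 1) had the smallest change of the 7. It was at 29.5, 29.8, 17.6, 27.7 and 22.1 RPM in MO males 1 to 5, against 34.2, 37.0, 30.6, 44.4, 29.8 and 37.2 RPM in control males 1 to 6. MO male 2 and control male 5 were level, and the other MO animals lay below every control. The means were 25.3 ± 5.34 RPM in MO males (SD, n = 5) and 35.5 ± 5.33 RPM in control males (SD, n = 6), and the log2 fold change was -0.49 (limma, SE 0.18, adjusted p = 0.014). The call rested on MO male 3, the lowest animal: without it the log2 fold change was -0.37 (limma, SE 0.18, adjusted p = 0.059). Over the 11 leave-one-out fits that adjusted p reached 0.059 at most.

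In the order of genes on GRCr8, Cyp2a1, Cyp2a2, Cyp2f4 and Cyp2t1 follow each other on chromosome 1 with only pseudogenes between them, and all 4 were listed as lower in MO, as were 96.5% of all rows. Of any 2 members, Cyp2f4 and Cyp2t1 had the smallest root mean square difference between their deviations. It was 0.23 on the log2 scale over the 11 libraries. This measure tends to be smaller for genes that vary little. The spreads within groups of Cyp2f4 and Cyp2t1, 0.25 and 0.26 on the log2 scale, were the smallest of the members. The small difference therefore does not show that these neighbours varied together more than other pairs. The nearest other genes were Xrcc6, a DNA end-joining protein, for Cyp2f4 (0.12), Bco2, which cleaves carotenoids, for Cyp2t1 (0.15) and Mterfd3 for Cyp2a1 (0.17). The runners-up were Hdac11, a histone deacetylase, for Cyp2f4 (0.14), Upb1, of pyrimidine breakdown, for Cyp2t1 (0.16) and Pdgfra, a growth factor receptor, for Cyp2a1 (0.17). Medians over all rows were 0.33 for Cyp2f4, 0.37 for Cyp2t1 and 0.37 for Cyp2a1.

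**Figure D2:**
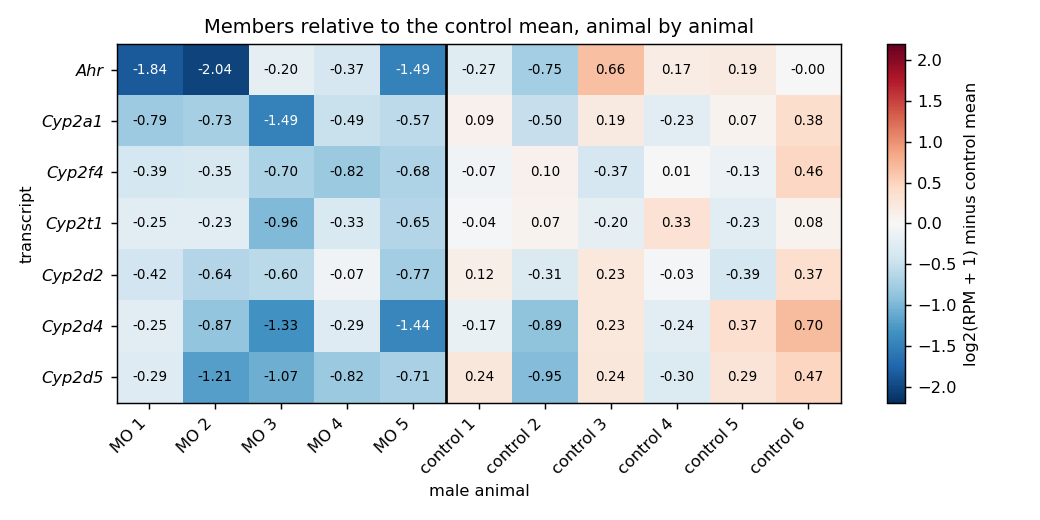
Each cell gives log2(RPM + 1) of a transcript (rows) in 1 male animal (columns, MO left of control) minus the control mean, blue where lower and red where higher. All MO cells are below 0, from -2.04 for Ahr in MO male 2 to -0.07 for Cyp2d2 in MO male 4, and control male 2 is at -0.95 for Cyp2d5 and -0.89 for Cyp2d4.

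The Cyp2d genes encode the rat enzymes related to human CYP2D6, which oxidises debrisoquine and many cardiac and psychoactive drugs. Cyp2d2 (NM_012730, chromosome 7), the rat enzyme best known for debrisoquine hydroxylation, was at 1360, 1165, 1196, 1726 and 1065 RPM in MO males 1 to 5, against 1975, 1464, 2133, 1783, 1383 and 2349 RPM in control males 1 to 6. MO male 4 was above 2 of the 6 controls, and the other 4 MO animals were below every control. The means were 1302 ± 259.6 RPM in MO males (SD, n = 5) and 1848 ± 379 RPM in control males (SD, n = 6). The log2 fold change was -0.50 (limma, SE 0.19, adjusted p = 0.015), and 1166 rows were lower still.

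Cyp2d5 (NM_173304, chromosome 7) was at 423.5, 223.1, 244.7, 292.2 and 316.3 RPM in MO males 1 to 5, against 611.5, 267.0, 611.8, 420.4, 630.4 and 717.5 RPM in control males 1 to 6. Control male 2 was the lowest control, at 267.0 RPM, and only MO males 2 and 3 were below it. The means were 300.0 ± 78.3 RPM in MO males (SD, n = 5) and 543.1 ± 166.6 RPM in control males (SD, n = 6), and the log2 fold change was -0.82 (limma, SE 0.23, adjusted p = 0.0069).

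Cyp2d4 (NM_138515, chromosome 7), known from rat brain as well as liver, was at 55.8, 36.0, 25.8, 54.4 and 23.9 RPM in MO males 1 to 5, against 59.1, 35.5, 78.2, 56.1, 86.4 and 108.5 RPM in control males 1 to 6. Control male 2 was the lowest control here too, and only MO males 3 and 5 were below it, while the other 5 controls lay above every MO animal. The means were 39.2 ± 15.2 RPM in MO males (SD, n = 5) and 70.6 ± 25.8 RPM in control males (SD, n = 6). The log2 fold change was -0.84 (limma, SE 0.26, adjusted p = 0.0091).

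Cyp2d1 and Cyp2d3, which lie between Cyp2d5 and Cyp2d2 on GRCr8, were not analysed here. The Cyp2d genes are close copies too, so the division of shared reads among them is as uncertain as for Cyp2a1. The nearest genes in deviation were Ccs, the copper chaperone of superoxide dismutase, and Wbp1 for Cyp2d2 (0.09 and 0.10 on the log2 scale). For Cyp2d4 they were Tdo2, the tryptophan dioxygenase, and Notum, a secreted Wnt inhibitor (both 0.18). For Cyp2d5 they were Irs2, the insulin receptor substrate, and Stag1, a cohesin subunit (both 0.17). Medians over all rows were 0.26 for Cyp2d2, 0.46 for Cyp2d4 and 0.40 for Cyp2d5. On the deposited scale Irs2 followed Cyp2d5 within groups but was itself higher in MO males (log2 fold change 0.65, limma SE 0.23, adjusted p = 0.012).

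A fold change on the deposited scale holds whatever moved all rows of a library together. The library median of log2(RPM + 1) over the listed rows was 3.72 to 4.06 in MO males and 4.29 to 4.92 in control males. With each library centred on that median, the log2 fold change became -0.60 ± 0.31 for Ahr, -0.25 ± 0.23 for Cyp2d4, -0.23 ± 0.20 for Cyp2d5 and -0.23 ± 0.18 for Cyp2a1 (SE). It was -0.005 ± 0.16 for Cyp2f4, and turned to 0.09 ± 0.12 for Cyp2d2 and 0.10 ± 0.19 for Cyp2t1 (SE). On this scale 0 of 7 members passed the limma threshold, with 0 at an unadjusted p under 0.05, against 5.27% of all rows that passed in either direction and 1.76% that passed as lower. Of the 7, 5 lay below 0, as did 48.2% of all rows. Centring moves every fold change by the same amount, which is close to the median change of all rows, -0.58. The listed rows are nearly all lower, so centring sets each member against other selected rows and not against the whole transcriptome.

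**Figure D3:**
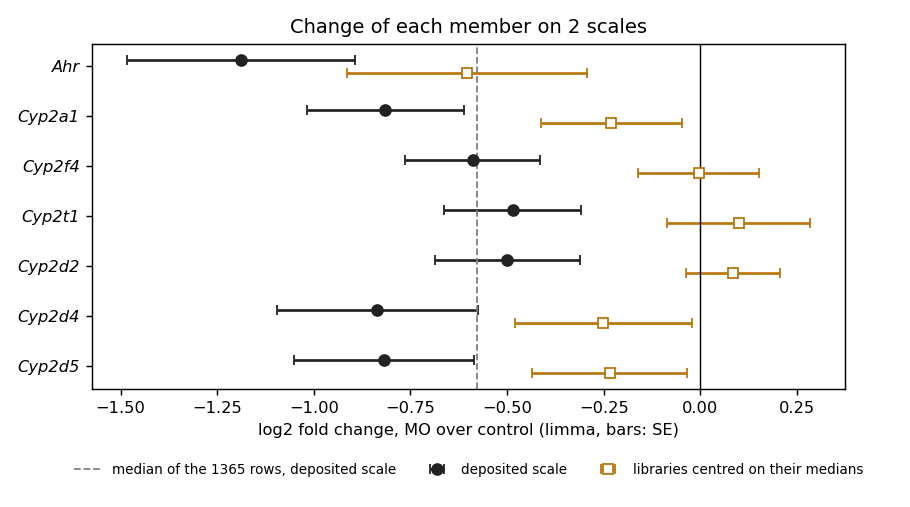
Log2 fold change of MO over control males for each transcript with its SE, on the deposited scale (filled) and with libraries centred on their medians (open); the dashed line is the median of the 1365 rows at -0.58. Ahr lies farthest below that line, Cyp2f4 on it, and Cyp2d2 and Cyp2t1 slightly above it, so that their centred values are above 0.

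Ratios between 2 members within an animal do not depend on the scaling of its library, and were compared between the groups for all 21 pairs, a comparison chosen after the values had been seen. No pair passed an exact permutation test over the 462 splits of the animals (two-sided, Benjamini-Hochberg adjusted over 21 pairs, smallest adjusted p = 0.62), and 0 were under 0.05 unadjusted. The ratio of Cyp2d2 to Ahr came nearest. Its mean log2 ratio was 8.25 ± 0.96 in MO males (SD, n = 5) and 7.34 ± 0.50 in control males (SD, n = 6), a difference of 0.91 (95% exact permutation interval -0.125 to 1.93; exact permutation p = 0.080). All 6 ratios of a P450 to Ahr were higher in MO males, by 0.56 to 0.91, with intervals that included 0. They share Ahr, the member with the largest fall, so they are not 6 separate results.

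Among the P450s some ratios were held within narrower limits. The log2 ratio of Cyp2d4 to Cyp2d5 was -2.99 ± 0.51 in MO males (SD, n = 5) and -2.96 ± 0.22 in control males (SD, n = 6), a difference of -0.03 with a 95% exact permutation interval of -0.57 to 0.465. That of Cyp2f4 to Cyp2t1 was 0.90 ± 0.28 in MO males (SD, n = 5) and 1.0 ± 0.24 in control males (SD, n = 6), a difference of -0.10 (interval -0.46 to 0.255). That of Cyp2a1 to Cyp2d2 was -2.63 ± 0.41 in MO males (SD, n = 5) and -2.31 ± 0.24 in control males (SD, n = 6), a difference of -0.32 (interval -0.77 to 0.125). These intervals leave room for unequal changes of the size seen between members.

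**Figure D4:**
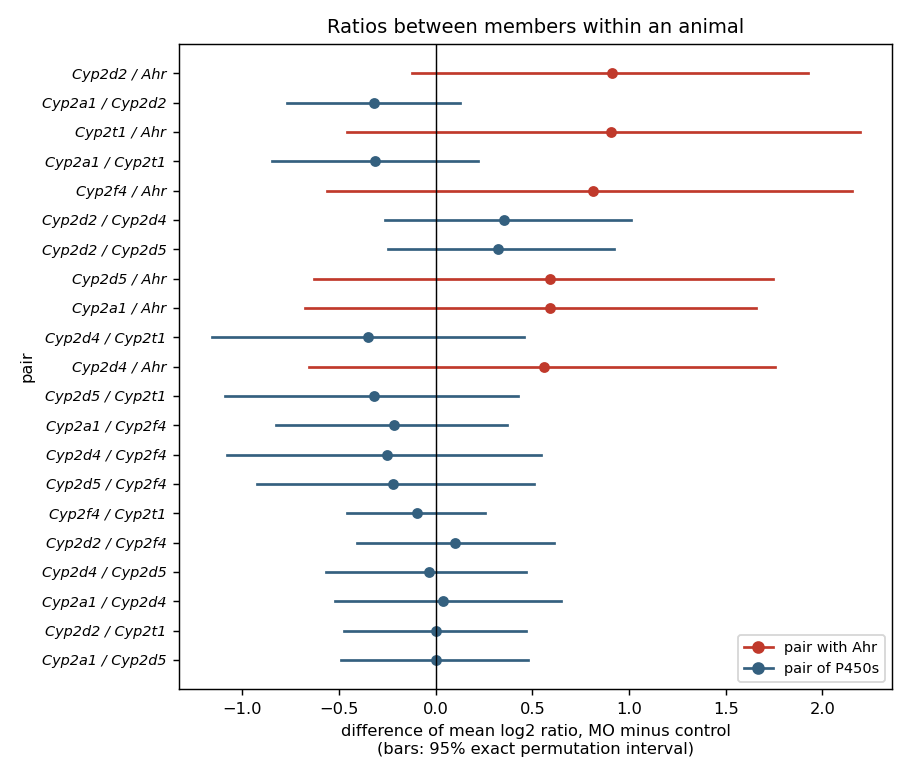
Difference of the mean log2 ratio between 2 transcripts, MO minus control males, for the 21 pairs (rows, sorted by p), with 95% exact permutation intervals. All intervals cross 0, and the 6 pairs with Ahr, from 0.56 to 0.91, have the widest.

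Other genes of the pathway were counted from 7 lists of 158 genes, of which 15 had a row, all of them lower in MO and past the limma threshold, as were 96.5% of all rows. Their median log2 fold change was -0.60, against -0.58 over all rows. Of 36 other family 2 P450s the table held 3. These were Cyp2u1, a fatty acid hydroxylase (-1.0 ± 0.27, SE), Cyp2a2 (-0.87 ± 0.18, SE) and the male-specific Cyp2c13 (-0.65 ± 0.19, SE). Cyp2u1 rests on few reads, about 12 to 38 in MO males and 11 to 74 in control males. For Cyp2u1 2 of 5 MO animals lay below every control. Of 10 family 1 and 3 P450s it held Cyp3a2, a male-specific steroid and drug hydroxylase, at 1316 ± 528 RPM in MO males (SD, n = 5) and 2392 ± 758 RPM in control males (SD, n = 6). The Cyp3a2 row pairs that transcript with the gene ID of a related gene, so its identity rests on the transcript.

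The supply of heme and electrons to P450s was represented by a few genes. Of 13 heme genes the table held 3: Alad, which makes porphobilinogen (-0.84 ± 0.21, SE), Ppox, the protoporphyrinogen oxidase (-0.72 ± 0.17, SE), and Blvra, which reduces biliverdin (-0.59 ± 0.19, SE). Of 8 electron donors it held 2, the cytochrome b5 reductase Cyb5r3 (-0.53 ± 0.18, SE) and Fdxr, which feeds mitochondrial P450s (-0.58 ± 0.17, SE). Of 47 other phase I enzymes it held 4, among them Nqo2, a quinone reductase (-0.68 ± 0.18, SE), and Aldh2, which clears acetaldehyde (-0.60 ± 0.20, SE).

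Of 19 partners and targets of Ahr 1 had a row, Nfe2l2, the regulator of antioxidant genes (-0.53 ± 0.19, SE). The other 18, which include Arnt and the family 1 targets Cyp1a1, Cyp1a2 and Cyp1b1, were not analysed here. After centring, the log2 fold change of Nfe2l2 was 0.06, and 0 of the 15 passed the limma threshold.

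Several other measures differed between the groups or, for Rmrp, divided the controls. Of 6 stellate cell markers 3 had a row, Pdgfrb, Des and Reln, all lower, with a summed level of 29.0 to 34.3 RPM in MO males and 42.6 to 55.5 RPM in control males. Of 5 bile duct markers 2 had a row, Krt19 and Epcam, both lower, with a summed level of 6.17 to 13.4 RPM in MO males and 11.4 to 18.0 RPM in control males. Lower levels were the rule in the table, at 96.5% of all rows, and after centring the log2 fold changes of these 5 markers were -0.12 for Pdgfrb, -0.05 for Des, 0.10 for Reln, -0.02 for Krt19 and -0.05 for Epcam. The Kupffer cell, sinusoidal endothelial, neutrophil and erythroid markers were not analysed here. Of 10 hepatocyte markers only Cps1 had a row, at 796 to 916 RPM in MO males and 859 to 1900 RPM in control males, which is the extent to which the tissue label could be checked. Rmrp, an RNA without a poly(A) tail, ranged over 1.71 to 3.11 RPM in MO males; control males 1 and 5 had 1.20 and 1.52 RPM, while control males 2, 3, 4 and 6 had 36.9 to 51.2 RPM. Against control males 1 and 5 alone the members stayed lower, and 4 of 7 passed the limma threshold, as did 38.9% of all rows. The 4 were Ahr, Cyp2a1, Cyp2d4 and Cyp2d5, and the part of these measures in the results was not tested.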

How the data were processed

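Liver RNA of 22 rats was sequenced, per the labels' protocols, from TruSeq libraries of total RNA. STAR 2.3.1j, Partek and build rn5 appear in the submitters' processing notes with no role stated; the rule for counting reads is not given in the sources used here. For each sex the authors deposited 1 table of RPM values (read counts brought to the same total in every library) plus 1. This unit was inferred: the lowest value is exactly 1, and of male values under 9 RPM, 81.4% to 86.6% came out as whole reads within 0.02, too few for a test on counts. The p-values and log2 fold sizes deposited by the authors could be recomputed for 1365 of 1365 male rows, and the p-values are unadjusted. No deposited p reached 0.05 and no change was smaller than 0.48 on the log2 scale, so the rows had been selected. Adjusted p-values here are no false discovery rate over the transcriptome.

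The 11 male libraries were fitted in R 4.3.3 by limma-trend (limma 3.58.1) to log2(RPM + 1), unfiltered, over all 1365 rows, of which 18 repeat another row's values. The fit was also run on simulated data in which most rows did not change and all depths were equal. The listed rows were selected and nearly all lower, so that run does not show how the fit behaves on them. Fold changes on this scale understate changes of low genes. Named were the 7 members, list genes with a row, and per member the 2 genes nearest in within-group deviation. The members and lists were chosen with earlier results of these data known. Promoters are from RefSeq (GRCr8), used also for gene order and for names. Same-numbered animals share only a number. Some list genes are not reported here.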

Additional observations from a re-analysis of the deposited data

How the results depend on the processing

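With libraries centred on their medians, 72 rows passed in place of 1365 (24 lower, 48 higher) and 0 members in place of 7. The centred log2 fold changes were -0.604 for Ahr, -0.231 for Cyp2a1, -0.251 for Cyp2d4, -0.234 for Cyp2d5 and -0.005 for Cyp2f4, and turned positive for Cyp2d2 (0.085) and Cyp2t1 (0.099), as follows from subtracting a shift of -0.58. Against control males 1 and 5 alone, 531 rows and 4 members passed, with Cyp2d2 at -0.364, Cyp2f4 at -0.489 and Cyp2t1 at -0.348 no longer past the threshold; this setting has 2 controls in place of 6. Without MO male 3, 3 pairs of members had an unadjusted exact permutation p under 0.05, and without MO male 5, 1 pair. Leaving out 1 animal gave 1282 to 1364 rows, 6 to 7 members and 0 to 0 pairs of members past the threshold after adjustment. The log2 fold changes then ranged from -1.436 to -0.976 for Ahr, -0.915 to -0.645 for Cyp2a1, -0.606 to -0.425 for Cyp2d2, -1.013 to -0.684 for Cyp2d4, -1.009 to -0.722 for Cyp2d5, -0.664 to -0.498 for Cyp2f4 and -0.549 to -0.366 for Cyp2t1, the last without MO male 3, the one call lost. A pseudocount of 0.5 or 2, a filter at a mean of 1 RPM, limma without trend, the exact permutation test (1336 rows) and controls 2, 3, 4 and 6 alone (added after the data were seen, 1327 rows) changed no member's direction or call. Same-numbered animals of the groups did not deviate together (correlations from -0.098 to 0.154 over the rows, and 0 of 5 MO animals correlated best with the control of their number). With the replicate number as a block, which drops control male 6, 1343 rows and 7 members passed. Depth limits Ahr most, at about 21 reads in MO male 2, and intervals cover the spread between these animals only.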

Other observations

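Single libraries held several extremes of the 7 transcripts at once. On the deposited scale control male 6 was the highest control for 5 of 7 (Cyp2a1, Cyp2d2, Cyp2d4, Cyp2d5 and Cyp2f4), and control male 2 the lowest for 4 of 7 (Cyp2a1, Cyp2d4, Cyp2d5 and Ahr). After centring, control male 6 was the highest for 0 of 7, control male 2 was the lowest control for 4 of 7, and MO male 3 was the lowest MO animal for 5 of 7, against 2 of 7 on the deposited scale. Centring narrowed the spread within groups of Cyp2d2, to 0.17 in place of 0.29 on the log2 scale, and widened that of Cyp2t1, to 0.35 in place of 0.26.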
